A study of Mirounga angustirostris with 8 samples.

Results

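Heme turnover and iron storage were described in northern elephant seal (NES) skeletal muscle through 10 genes chosen by symbol. These were the heme oxygenases HMOX1 and HMOX2, the biliverdin reductases BLVRA and BLVRB, the heme synthesis enzymes ALAS1 and FECH, the ferritin subunits FTH1 and FTL, the transferrin receptor TFRC and the iron exporter SLC40A1. All 10 were found among the 24338 entries of the deposited table that name a gene, and all 10 were among the 14312 genes that passed the filter on low counts. RNA came from the longissimus dorsi of wild adult females, sampled under sedation, that were molting, fasting and less active on land. The late-molt group held 4 libraries, labelled with 34 days of molt (seals 4448, 5572, 9678 and X410, libraries ending in B). In the paper, 34 days is the average time from the initial sample over its late samples, and no days are given for single libraries. The early-molt group held 4 libraries, taken at most 5 days after the seals came ashore (seals 5572, 5842, 6762 and C497, libraries ending in A). By the library titles, seal 5572 was the only animal in both groups, so 7 seals were sampled and the groups were compared unpaired. The study states that these libraries were kept for having the most unique reads among samples of uneven RNA quality.

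Heme, an iron-containing ring, binds oxygen in myoglobin and carries electrons in the respiratory cytochromes, and diving seals are known for very high muscle myoglobin. Heme synthesis starts in the mitochondrion with ALAS1, the rate-limiting enzyme outside red cells, and ends with FECH, which inserts iron. Heme oxygenases open the ring to biliverdin, carbon monoxide and iron, and biliverdin reductases turn biliverdin into bilirubin. The iron released is held in ferritin, a shell built of FTH1 subunits, which oxidize iron, and FTL subunits, which help to form the mineral core, or leaves the cell through SLC40A1 (ferroportin).

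Read counts summed to 30769570 to 61216192 in the late-molt libraries and to 37897904 to 56137977 in the early-molt libraries. Levels are given as CPM (counts scaled to a common library size), with TMM factors that adjust each library for its composition, and differences as log2 fold changes of late over early molt with their standard error (SE) from edgeR's quasi-likelihood test, p-values being adjusted over all 14312 genes tested. CPM are not divided by transcript length, so levels of different genes were not ranked. Skeletal muscle markers dominated the libraries (10 of 12 listed symbols matched, 169019 to 240978 summed CPM late and 185181 to 288177 early). Macrophage markers, which matter here because macrophages recycle heme iron, summed to 35.1 to 67.1 CPM late and 29.5 to 97.3 CPM early (14 of 16 listed symbols matched, without CD163 and C1QC). These are low levels. Of the 12 macrophage markers tested, 8 were lower in late molt, whereas CD68 was higher without overlap (mean 3.59 CPM late and 0.807 CPM early, edgeR adjusted p = 0.504). Red-cell markers summed to 42.1 to 62.2 CPM late and 39.5 to 63.6 CPM early (8 of 13 listed symbols matched), nearly all of it GYPC, a membrane glycoprotein (39.0 to 61.0 CPM late and 37.8 to 63.6 CPM early). The band 3 gene SLC4A1 had 0 counts in every library, and ALAS2, the erythroid form of ALAS1, was at most at 1.39 CPM late and 0.850 CPM early. Fibroblast markers summed to 241 to 502 CPM late and 460 to 1467 CPM early, and their part in the results was not tested. Early-molt 5842A stood apart with the highest sum of both fibroblast and macrophage markers (1467 and 97.3 CPM). In the study's mapping summary, 5842A in early molt and 9678B in late molt had the lowest share of uniquely mapped reads of their groups, and the part of this in their values was not tested. In bulk tissue, a change in the number of cells of a type and a change in the RNA per cell cannot be told apart.

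No gene of the 10 passed an edgeR adjusted p under 0.05, where 0.349% of all genes tested did (50 of 14312, 0.217% higher and 0.133% lower). Before adjustment, p was under 0.05 for 1 gene that was higher in late molt (FTL) and 2 that were lower (HMOX1 and FTH1), with a background of 11.4% (5.2% higher and 6.22% lower). DESeq2 called FTL higher and HMOX1 lower at its adjusted p under 0.05, with a background of 6.52% (3.35% higher and 3.16% lower) of the 9991 genes to which it gave an adjusted p. Limma-voom called 0 of the 10, with a background of 0.657% (0.384% higher and 0.272% lower). The groups did not overlap in FTL, which was higher, and in FTH1, which was lower, with a background of 9.16% (4.05% higher and 5.11% lower). HMOX1 and ALAS1 were lower by more than 1 log2 unit and none of the 10 was higher by as much, with a background of 9.24% lower and 5.4% higher. The median log2 fold change of the 10 genes was -0.08, and that of all genes tested -0.04.

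**Figure D1:**
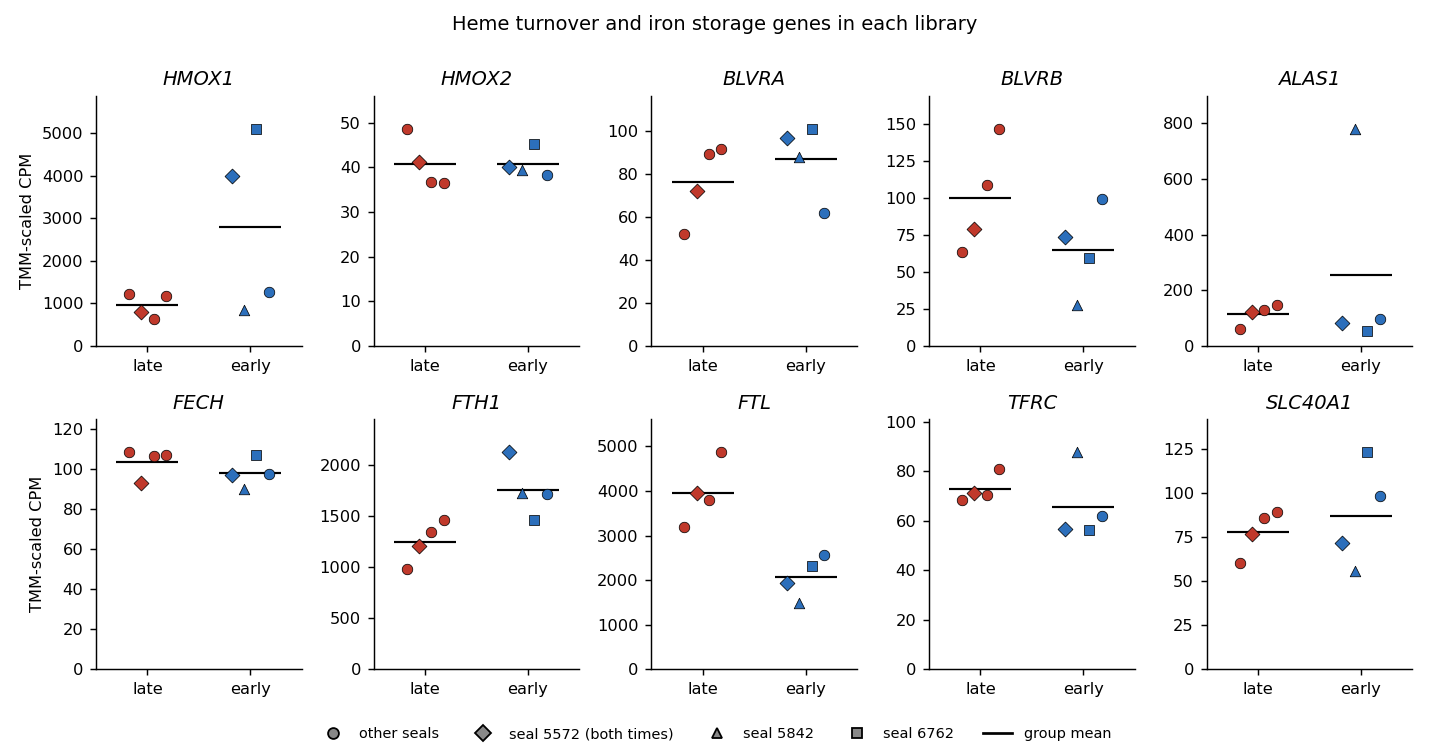
Level of each of the 10 genes in each library, in TMM-scaled CPM on a linear axis that starts at 0 (red, 4 late-molt libraries; blue, 4 early-molt libraries; black lines, group means; diamonds, seal 5572, sampled at both times; triangles, seal 5842; squares, seal 6762). FTL libraries of late molt sit at 3184 to 4875 CPM, above all early-molt libraries, whereas HMOX1 is spread from 853 to 5103 CPM within early molt and ALAS1 is set apart in a single early-molt library at 780 CPM.

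Of the 10 genes, FTL showed the clearest separation of the groups. FTH1, the other ferritin subunit, differed in the opposite direction and by a narrow margin. Groups did not overlap in 9.16% of all genes tested. FTL was at 3184, 3953, 3797 and 4875 CPM in late-molt 4448B, 5572B, 9678B and X410B, against 1926, 1476, 2308 and 2567 CPM in early-molt 5572A, 5842A, 6762A and C497A. Every late-molt library lay above every early-molt library. The mean was 3952 ± 699 CPM late and 2069 ± 475 CPM early (SD, n = 4 each), a log2 fold change of 0.93 ± 0.23 (edgeR adjusted p = 0.0911, unadjusted p = 0.00143), or 1.91-fold with a 95% interval of 1.35 to 2.70. Without 5842A, the early-molt library with the least FTL, the log2 fold change was 0.82. FTL ranked 224 of 14312 genes by p, and the adjusted p was 5.54e-04 in DESeq2 and 0.0549 in limma-voom.

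FTH1, the iron-oxidizing subunit, was at 981, 1205, 1347 and 1458 CPM in the late-molt libraries (in the order 4448B, 5572B, 9678B and X410B), against 2127, 1726, 1459 and 1713 CPM in the early-molt libraries (in the order 5572A, 5842A, 6762A and C497A). The groups met almost edge to edge, late-molt X410B and early-molt 6762A being less than 1 CPM apart. Scaled by library totals alone, X410B lay above 6762A, and the groups overlapped. The edgeR unadjusted p was then 0.0918, and it was 0.0657 with TMM factors and no filter on low counts. The log2 fold change was -0.49 ± 0.21 (edgeR adjusted p = 0.363, unadjusted p = 0.0328, DESeq2 adjusted p = 0.0906), which is 0.711-fold with a 95% interval of 0.522 to 0.968.

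The ratio of FTH1 reads to FTL reads is taken within a library and so does not depend on how libraries are scaled; no test was run on it. It was 0.308, 0.305, 0.355 and 0.299 in late-molt 4448B, 5572B, 9678B and X410B, against 1.10, 1.17, 0.632 and 0.668 in early-molt 5572A, 5842A, 6762A and C497A. The late-molt values were nearly alike, whereas the early-molt values formed a higher pair and a lower pair. The groups did not overlap, which already follows from the TMM-scaled levels of FTL and FTH1 and is no further result. The mean ratio was 0.317 ± 0.0256 late and 0.893 ± 0.283 early (SD, n = 4 each). On the log2 scale the ratio was lower in late molt by a difference of -1.44, and between -1.59 and -1.29 with any 1 library left out. The ratio of reads also reflects transcript lengths and, since ferritin genes are known to have many processed pseudogenes whose shared reads this counting drops, only its change between libraries can be read.

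**Figure D2:**
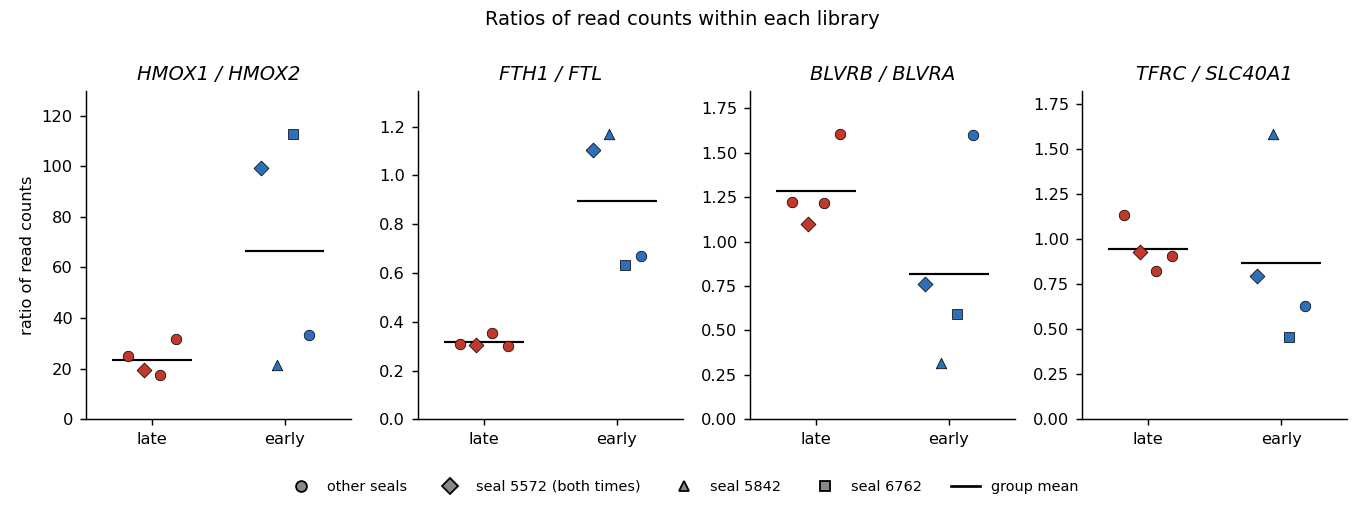
Ratio of the read counts of 2 genes within each library, for 4 pairs (red, late molt; blue, early molt; black lines, group means; symbols for seals as in the key). The FTH1 to FTL ratio lies at 0.299 to 0.355 in the late-molt libraries, below the 0.632 to 1.17 of the early-molt libraries. This follows from the levels of FTL and FTH1, neither of which overlaps between the groups. The other 3 ratios overlap between the groups.

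HMOX1, the stress-inducible heme oxygenase, had the largest log2 fold change among the 10 genes, and 2 early-molt libraries stood far above the rest. It was at 1210, 800, 638 and 1161 CPM in late-molt 4448B, 5572B, 9678B and X410B, against 3983, 853, 5103 and 1273 CPM in early-molt 5572A, 5842A, 6762A and C497A. Early-molt 5572A and 6762A were far above every late-molt library, C497A was just above the late-molt range and 5842A was inside it. The mean was 953 ± 278 CPM late and 2803 ± 2068 CPM early (SD, n = 4 each). The log2 fold change was -1.56 ± 0.48 (edgeR adjusted p = 0.189, unadjusted p = 0.00716; DESeq2 adjusted p = 0.0189, limma-voom adjusted p = 0.259), and -1.10 without 6762A and -1.83 without 5842A.

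The spread of HMOX1 among early-molt seals was wide beside that of genes with a mean of at least 20 CPM. Genes as abundant as HMOX1 were not compared separately. Its SD of log2 CPM was 0.44 in late molt and 1.25 in early molt. Among the 5108 genes with a mean of at least 20 CPM, 99.4% had a smaller early-molt SD, and their median was 0.27 in late molt and 0.34 in early molt. The early-molt libraries with the most HMOX1, 5572A and 6762A, had the lowest macrophage sums of all 8 libraries (29.5 and 29.7 CPM), and 5842A, with the highest macrophage sum, had the least HMOX1 of early molt. The part of macrophages in the HMOX1 levels was not tested. By root mean square difference of centred log2 CPM over the 8 libraries, the genes closest in pattern to HMOX1 were CLMN (0.41 log2 units), SLC43A1 (0.45) and RASGEF1B (0.48), where HMOX1 itself varied by 1.02 about its mean.

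HMOX2, the constitutive heme oxygenase, was steady where HMOX1 was not. It was at 48.7, 41.3, 36.7 and 36.6 CPM in the late-molt libraries, against 40.1, 39.5, 45.3 and 38.4 CPM in the early-molt libraries (libraries in the order given for FTH1). The groups overlapped and their means were 40.8 CPM each. The 95% interval of the difference, 0.763- to 1.31-fold, leaves room for a modest change in either direction (log2 fold change -0.00030 ± 0.18, edgeR adjusted p = 0.9998, with a sign that changed with the scaling and with the library left out). The ratio of HMOX1 to HMOX2 reads ranged from 17.4 to 31.7 in late molt and from 21.6 to 113 in early molt.

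The biliverdin reductases act on the product of the heme oxygenases, BLVRA on the main isomer in adults and BLVRB on fetal-type isomers and flavins. BLVRB was at 63.7, 79.2, 109 and 147 CPM in late-molt 4448B, 5572B, 9678B and X410B, against 73.7, 27.7, 59.5 and 98.9 CPM in early-molt 5572A, 5842A, 6762A and C497A. The groups overlapped, and the lowest value was that of 5842A. The log2 fold change was 0.61 ± 0.35 (edgeR adjusted p = 0.575), and from 0.37 without X410B to 0.89 without C497A. BLVRA was at 52.0 to 91.3 CPM late and 61.9 to 101 CPM early, with a log2 fold change of -0.19 ± 0.23 (edgeR adjusted p = 0.851, 95% interval 0.623- to 1.24-fold). The BLVRB to BLVRA ratio was 1.10 to 1.61 in late molt, whereas in early molt it was 0.315 to 0.764 in 3 libraries and 1.60 in C497A.

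**Figure D3:**
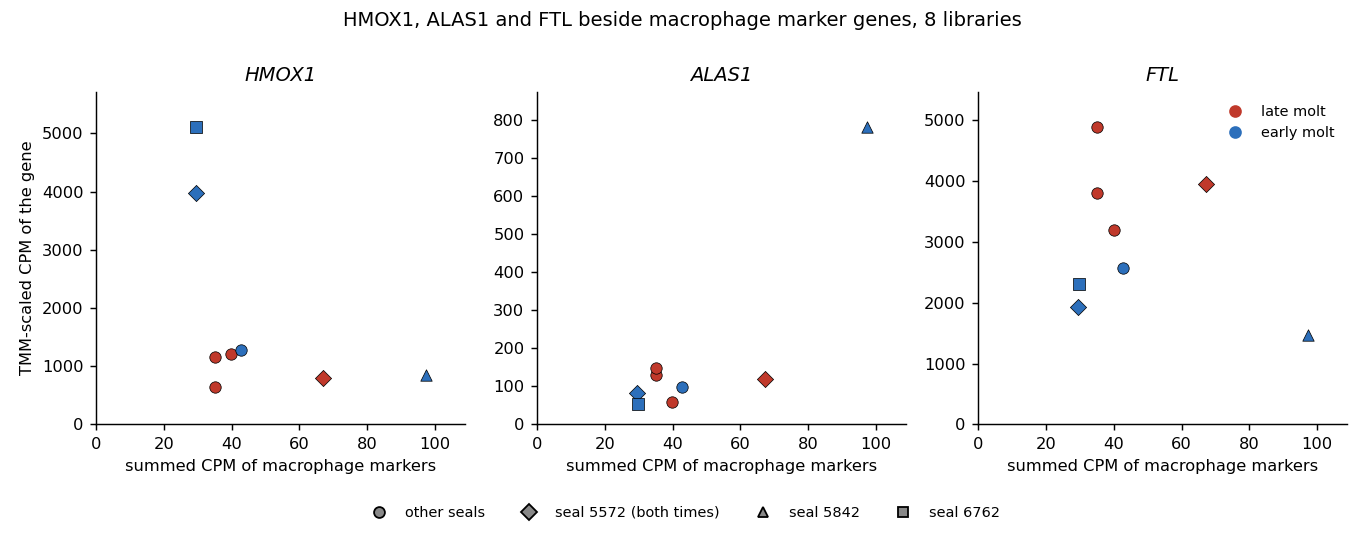
Levels of HMOX1, ALAS1 and FTL (vertical axes, TMM-scaled CPM) against the summed CPM of the macrophage marker genes (horizontal axes) in the 8 libraries (red, late molt; blue, early molt; symbols mark seals). The highest HMOX1 values, 3983 and 5103 CPM, stand at the lowest macrophage sums, 29.5 and 29.7, and the ALAS1 value of 780 CPM at the highest, 97.3.

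Heme synthesis was described by its entry and its final enzyme, which differed in their spread between libraries. ALAS1 was at 59.8, 120, 130 and 147 CPM in late-molt 4448B, 5572B, 9678B and X410B, against 83.5, 780, 53.5 and 97.99 CPM in early-molt 5572A, 5842A, 6762A and C497A. Early-molt 5842A stood alone with 24872 reads of ALAS1, and the other 7 libraries ran from 53.5 to 147 CPM. The log2 fold change was -1.15 ± 0.70 with all libraries (edgeR adjusted p = 0.607) and 0.57 without 5842A (edgeR adjusted p = 0.675), so its direction rested on that library. The outlier filter of DESeq2 left ALAS1 without a p. Library 5842A also had the highest fibroblast and macrophage marker sums, whose part in the ALAS1 value was not tested.

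FECH was the steadiest of the 10 genes. It was at 109, 93.3, 107 and 107 CPM in the late-molt libraries, against 97.3, 90.2, 107 and 97.9 CPM in the early-molt libraries (libraries in the order given for FTH1). Its SD within groups, 0.10 log2 units, was smaller than in all but 0.724% of the 5108 genes with a mean of at least 20 CPM. The log2 fold change was 0.08 ± 0.16 (edgeR adjusted p = 0.920), with a 95% interval of -0.27 to 0.44. Myoglobin (MB), the muscle protein that carries much of the heme, was at 89820 to 132362 CPM late and 56725 to 97087 CPM early. Its log2 fold change was 0.67 ± 0.23 (edgeR adjusted p = 0.248, DESeq2 adjusted p = 0.0279). MB was the only higher gene of the 10 muscle markers tested. The other 9 were lower in late molt, 4 of them at an edgeR unadjusted p under 0.05 (background 6.22% lower).

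Iron entry and exit showed little separation of the groups. TFRC, which takes up transferrin-bound iron, was at 68.3, 71.0, 70.4 and 81.0 CPM in the late-molt libraries, against 56.6, 87.8, 56.3 and 62.0 CPM in the early-molt libraries (libraries in the order given for FTH1). Late molt lay inside the early-molt range, where 5842A was again the extreme, and without 5842A the log2 fold change was 0.34 in place of 0.15 ± 0.19 (edgeR adjusted p = 0.866 with all libraries). SLC40A1, which exports iron, was at 60.2 to 89.3 CPM late and 55.4 to 123 CPM early, the lowest early value being that of 5842A and the highest that of 6762A. Its log2 fold change was -0.16 ± 0.25 (edgeR adjusted p = 0.893), and 0.06 without 6762A. The ratio of TFRC to SLC40A1 reads was 0.821 to 1.13 in late molt and 0.458 to 1.58 in early molt, with 5842A at the top.

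**Figure D4:**
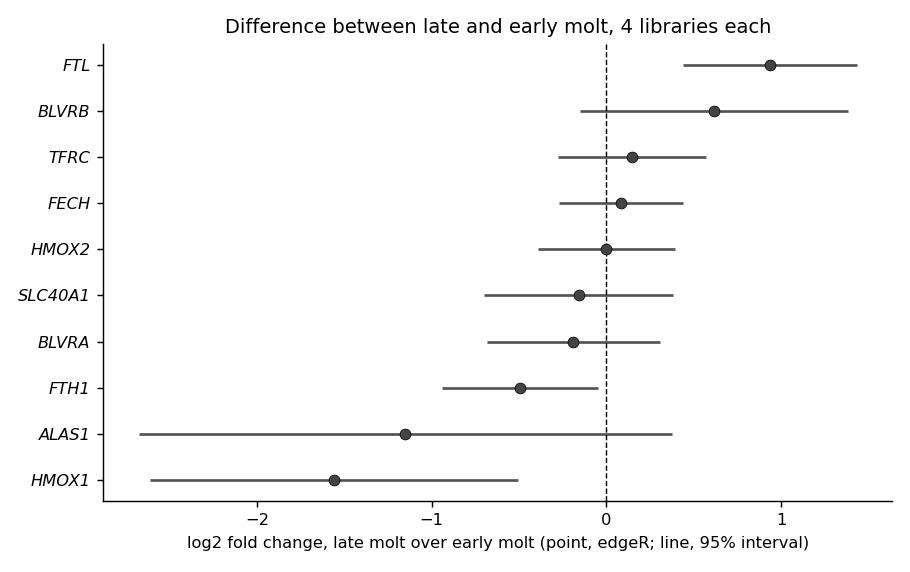
Log2 fold change of late over early molt for the 10 genes (points, edgeR estimate; lines, 95% interval; dashed line, no difference; 4 libraries per group). The intervals of FTL, FTH1 and HMOX1 exclude 0 before adjustment over all genes, and those of ALAS1 and HMOX1 are the widest.

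Seal 5572 gave the only difference within an animal, with 1 library at each time and therefore no test. In this seal FTL was higher late by 1.04 log2 units, FTH1 was lower (-0.82) and HMOX1 was lower (-2.31), each in the direction of the group means, which include these 2 libraries. ALAS1 was higher by 0.53 log2 units, against the direction of the group mean, and HMOX2 (0.04), FECH (-0.06), SLC40A1 (0.10) and BLVRB (0.10) were near 0. BLVRA was at -0.42 and TFRC at 0.33.

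The pattern of FTL over the 8 libraries was closest to that of IQSEC1 (root mean square difference of centred log2 CPM 0.16), of IRS1, an insulin receptor substrate (0.16), and of RRAGD, a Rag GTPase (0.16), where FTL itself varied by 0.54 about its mean. For FTH1 the closest were COQ6, an enzyme of coenzyme Q synthesis (0.11), CXXC5 (0.12) and DYRK1B (0.14). For ALAS1 they were S100A6 (0.43), MCTS1 (0.43) and SLC45A1 (0.50).

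The wider heme and iron pathway was covered by 7 lists holding 92 genes, of which 81 were matched and 72 tested, 62 of them besides the 10 described above. EdgeR and limma-voom each called 0 of the 62. By unadjusted edgeR p (under 0.05), 5 of the 62 were higher and 7 were lower in late molt, with a background over all genes of 5.2% higher and 6.22% lower. DESeq2 called 2 higher and 2 lower, with a background of 3.35% and 3.16% of the genes to which it gave an adjusted p. Of the 62, ALAS2, HEBP2, SLC39A8, STEAP4 and LYRM4 had none. The groups did not overlap in 4 that were higher and 6 that were lower, with a background of 4.05% and 5.11%. The median log2 fold change of the 62 was -0.07, against -0.04 for all genes tested, and the medians of the 7 lists lay between -0.14 and -0.005.

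In heme synthesis (14 tested), ABCB6, a transporter linked to porphyrin import into mitochondria, was at 162 ± 26.8 CPM late and 101 ± 17.0 CPM early without overlap (SD, n = 4 each), a log2 fold change of 0.69 ± 0.20 (edgeR adjusted p = 0.156, DESeq2 adjusted p = 0.0117). CLPX, a mitochondrial unfoldase that acts on ALAS enzymes, was at 96.2 ± 16.8 CPM late and 162 ± 63.9 CPM early, with overlap (-0.75 ± 0.26, edgeR adjusted p = 0.247). In heme transport (9 tested), PGRMC2, a heme chaperone in mice, was at 23.0 to 25.4 CPM in late molt and at 14.5 to 18.2 CPM in early molt, a narrow range on either side (0.59 ± 0.20, edgeR adjusted p = 0.230, DESeq2 adjusted p = 0.0171). The porphyrin exporter ABCG2 was at 1.96 ± 2.30 CPM late and 8.64 ± 2.43 CPM early without overlap, with 0 reads in late-molt 9678B (-2.14 ± 1.03, edgeR adjusted p = 0.467). Its log2 fold change was -3.07 without 5572B and -4.13 in limma-voom.

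Among iron uptake genes (8 tested), the divalent metal transporter SLC11A2 was at 26.0 ± 5.58 CPM late and 16.9 ± 4.07 CPM early (SD, n = 4 each), a log2 fold change of 0.62 ± 0.25 (edgeR adjusted p = 0.337), and mitoferrin-2 (SLC25A28) had -0.46 ± 0.32 (edgeR adjusted p = 0.673). Beside ferritin in the storage and export list (6 tested), the iron chaperone PCBP1 had 0.19 ± 0.18 (edgeR adjusted p = 0.793) and NCOA4, the receptor that carries ferritin to lysosomes, -0.16 ± 0.19 (edgeR adjusted p = 0.849). Both were near 0 beside the differences of FTL and FTH1.

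Of the iron regulators (12 tested), FBXL5, which marks iron regulatory protein 2 for breakdown, was at 19.7 to 26.9 CPM late and 29.1 to 40.5 CPM early, a log2 fold change of -0.64 ± 0.20 (edgeR adjusted p = 0.199, DESeq2 adjusted p = 0.0409). ACO1, which is iron regulatory protein 1 when it lacks its iron-sulfur cluster, was at 95.9 to 153 CPM late and 161 to 243 CPM early (-0.54 ± 0.21, edgeR adjusted p = 0.315). Iron regulatory proteins control ferritin mainly at translation, which read counts do not measure. IREB2 (iron regulatory protein 2) had -0.14 ± 0.21 and BACH1, the heme-sensing repressor of HMOX1, 0.07 ± 0.25 (edgeR adjusted p = 0.888 and 0.960). In the same list, MAFG had 0.81 ± 0.35 and KEAP1 0.42 ± 0.19, both without overlap (edgeR adjusted p = 0.385 and 0.434). At an edgeR unadjusted p under 0.05, 2 of the 12 were higher and 2 lower (background 5.2% higher and 6.22% lower).

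Iron-sulfur cluster assembly (19 tested) held the smallest p of all the lists, with 0 genes higher and 4 lower at p under 0.05 before adjustment (background 5.2% higher and 6.22% lower) and a median log2 fold change of -0.11. FDXR, the reductase that feeds electrons to the mitochondrial ferredoxins, was at 7.80 to 11.3 CPM late and 16.0 to 28.5 CPM early, with 5842A at the top. The groups did not overlap, and the log2 fold change was -1.25 ± 0.27 (edgeR adjusted p = 0.0679, DESeq2 adjusted p = 0.00134). MMS19, a targeting factor for cytosolic clusters, was at 25.3 to 40.9 CPM late and 44.1 to 59.0 CPM early (-0.64 ± 0.20, edgeR adjusted p = 0.197).

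**Figure D5:**
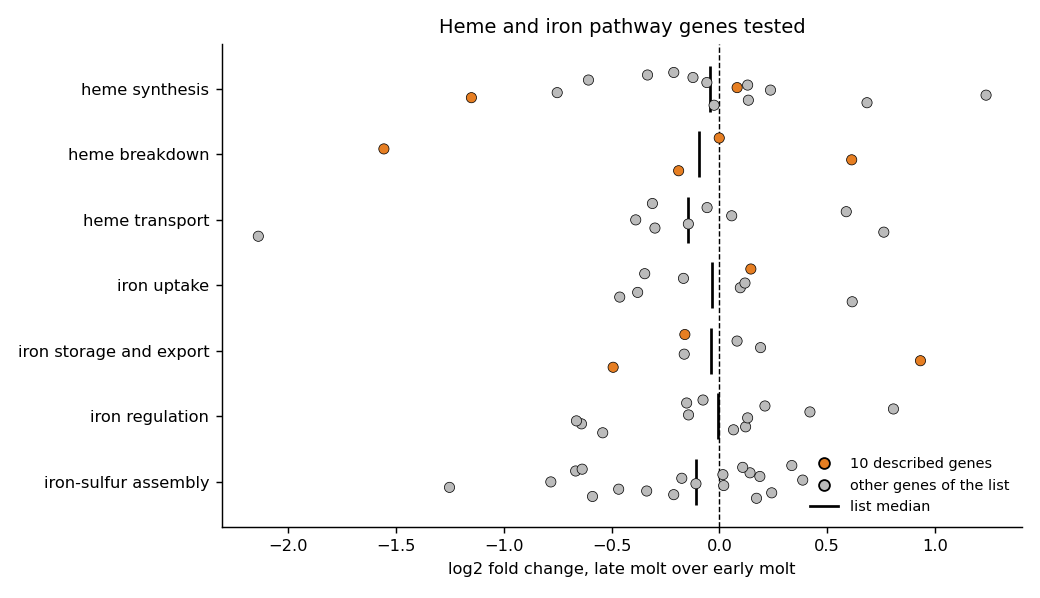
Log2 fold change of late over early molt for each tested gene of the 7 heme and iron lists (points; orange, the 10 genes described above; grey, other genes of the list; black bars, list medians; dashed line, no difference). The list medians lie between -0.14 and -0.005, while single genes run from -2.14 (ABCG2) to 1.24 (ALAS2, which was at most at 1.39 CPM in a library).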

How the data were processed

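The 8 libraries were made from poly-A RNA. The sample labels name a TruSeq kit and the paper a NEBNext kit. According to the paper and the labels, the authors used STAR to align paired reads of 50 bases against the genome of a related species, the Hawaiian monk seal, and had it count reads per gene. The deposited values are these raw counts, not normalized. The strand setting is not given in the sources used here, so reads of a gene and of an antisense gene over it may not be told apart. Reads with several matching places are not counted. Of 24349 entries, 11 name no gene (0.0173 to 0.0259% of counts) and were left out. No library was a copy of another (28 pairs compared, chi-square at least 84.2 times its degrees of freedom).

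Genes were kept with filterByExpr (minimum count 10, minimum total 15; 14312 of 19401 with a count). Using edgeR 4.0.16 (R 4.3.3), TMM factors were computed and a quasi-likelihood fit compared late with early molt on the 8 libraries with no covariate and Benjamini-Hochberg adjustment over all genes. SE and 95% intervals were derived from that fit. DESeq2 1.42.0 and limma-voom (limma 3.58.1) were alternatives, with other scalings, filters and left-out libraries. The fits were tried on simulated counts with known changes, and the share of these changes that was called is not reported here. The groups come from the stage label, and p-values measure the spread between seals. Log2 CPM used a prior count of 2. The 10 genes and all lists were chosen with earlier results of these data known. The rule for naming took the 10 genes, any other list gene past the threshold, the 2 smallest p per list and the 3 closest patterns. IREB2, BACH1, MAFG, KEAP1, ALAS2 and MB were named after their values were seen. All 10 symbols were matched in a RefSeq gene table of NES. That table is of another assembly than the counts, so no coordinates are given.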

Additional observations from a re-analysis of the deposited data

Results flagged for a closer look

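In groups of 4 libraries, 64 sets of values were screened for a single library far from the others, and 6 were set aside, where chance gives about 1 in 20. ALAS1 in early molt was at 780 CPM in 5842A, against 53.5 to 97.99 CPM in the other 3. FECH in late molt was at 93.3 CPM in 5572B, against 107 to 109 CPM, a gap of small size in a very steady gene. ACO1 in early molt was at 243 CPM in C497A, against 161 to 169 CPM. The FTH1 to FTL ratio in late molt was 0.355 in 9678B, against 0.299 to 0.308, still below every early-molt value. Macrophage markers in late molt summed to 67.1 CPM in 5572B, against 35.1 to 39.9 CPM, and fibroblast markers to 502 CPM in X410B, against 241 to 283 CPM. No cause was tested for any of these.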

How the results depend on the processing

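No paired analysis was possible because only seal 5572 had a library in each group. EdgeR called 0 of the 10 genes in each direction under every scaling, filter and left-out library tried (0 to 0 with 1 library left out). DESeq2 called 1 higher (FTL, 0.94, adjusted p = 5.54e-04) and 1 lower (HMOX1, -1.53, adjusted p = 0.0189), and among the other 62 genes it called 2 higher (ABCB6, 0.70, and PGRMC2, 0.60) and 2 lower (FDXR, -1.25, and FBXL5, -0.64). With no filter on low counts edgeR called 1 of these lower (FDXR, -1.24, adjusted p = 0.0420). Why DESeq2 gave more calls was not tested. Library totals without factors moved the median of all genes by 0.15 log2 units and the calls over all genes to 40 higher and 10 lower, against 31 and 19 with TMM factors. Of the 10 genes, 1 (HMOX1) in place of 2 was then lower at an unadjusted p under 0.05. FTH1 no longer was (-0.34, edgeR unadjusted p = 0.0918).

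The sign of HMOX2 was not stable: 0.0080 with RLE factors, 0.15 with library totals only, 0.0069 with the 20 most abundant genes left out of the scaling, 0.0098 in DESeq2, 0.0022 in limma-voom, 0.015 with no filter, 0.060 without 5842A and 9678B (the lowest in uniquely mapped reads of each group), and -0.093 to 0.056 with 1 library left out. ALAS1 turned to 0.50 without 5842A and 9678B and ran from -1.48 to 0.57 with 1 library left out, the positive value being without 5842A. SLC40A1 ran from -0.30 to 0.057, the positive value being without 6762A. The other 7 genes kept their direction under every alternative, among them FTL (0.82 to 1.06 with 1 library left out, adjusted p 0.0894 to 0.233), FTH1 (-0.57 to -0.39) and HMOX1 (-1.83 to -1.10, adjusted p 0.109 to 0.387). So did the 12 other pathway genes named by the rule. Without both libraries of seal 5572 the values were 0.90 for FTL (adjusted p = 0.372), -0.37 for FTH1 (0.781) and -1.25 for HMOX1 (0.573), all by edgeR. Macrophage marker sums differed between the groups by -0.25 to 0.35 log2 units with 1 library left out. The lowest count of any of the 10 genes in a library was 882 reads.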
